A study of Mus musculus with 203 samples.

Results

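The aryl hydrocarbon receptor (AhR) pathway was followed through 8 genes that were chosen by name among the 43346 gene identifiers of the count table. They were the receptor Ahr, its DNA-binding partner Arnt, the receptor's repressor Ahrr, the cytochrome P450 genes Cyp1a1, Cyp1a2 and Cyp1b1, the ADP-ribosyltransferase gene Tiparp and the aldehyde dehydrogenase gene Aldh3a1. Of the 8 genes, 7 passed the filter on low counts and were tested in every comparison, and Cyp1a2 did not and is described by its counts. RNA was sequenced from airway and from parenchyma of lungs of female BALB/c mice, aged 18 to 20 weeks by the labels, in 20 groups (43 libraries at 3 weeks and 160 at 11 weeks). For 3 weeks mice received intranasal house dust mite extract (HDM) or phosphate buffered saline (PBS) on 5 days per week, which gave 11 airway and 12 parenchyma libraries from PBS mice and 10 of each tissue from HDM mice. In the 16 groups at 11 weeks, with 10 libraries each, PBS or HDM was continued (HDM 3 times per week in weeks 4 to 11), cigarette smoke (CS) or normal air (AIR) was given on 5 days per week for 8 weeks, and some groups were treated in week 11 with dexamethasone (DEX), a synthetic glucocorticoid. These groups are called PBS.AIR, PBS.CS, HDM.AIR and HDM.CS, with .DEX added for treated mice, and the labels describe no genetic alteration in any of them.

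AhR is a transcription factor of the bHLH-PAS family that waits in the cytoplasm in a complex with chaperones. Planar aromatic compounds, such as the polycyclic hydrocarbons of smoke and certain products of tryptophan, bind it, and it then moves to the nucleus, pairs with ARNT and binds a short DNA element whose core is GCGTG. The CYP1 enzymes, which oxidize many of these ligands, are its classical targets, and AHRR and TIPARP are themselves induced by it and act back on it. In lung, CYP1A1 is known as a gene with low expression that is induced by inhaled smoke.

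The promoters of Ahrr, Cyp1a1 and Cyp1b1 are shown because they hold the core element and belong to the genes with the largest responses to CS below. The RefSeq promoter table (GRCm38.p6), with windows from 250 bases before to 50 bases after the start of each gene, held 6 of the 8 genes. The letters GCGTG were found on either strand in 5 of these 6 windows, and 32.4% of all 32851 promoters in the table held them. The Ahrr window held 3 matches, the nearest of them 82 and 27 bases before the start, and 3.91% of all promoters held 3 or more. Single matches lay 54 bases before the start of Cyp1a1, 76 before Cyp1b1, 170 before Tiparp and 29 before Arnt, and none was found for Cyp1a2. The longer form TNGCGTG occurred in 1 of the 6, Ahrr, and in 5.07% of all promoters. The 250 bases before the start are shown 5′ to 3′ on the strand of the gene, for Ahrr at chr13:74292332-74292581 (minus strand), for Cyp1a1 at chr9:57697363-57697612 (plus strand) and for Cyp1b1 at chr17:79715062-79715311 (minus strand), with GCGTG or its complement CACGC in capitals. A match of letters is a description and was not tested as a binding site.
Ahrr: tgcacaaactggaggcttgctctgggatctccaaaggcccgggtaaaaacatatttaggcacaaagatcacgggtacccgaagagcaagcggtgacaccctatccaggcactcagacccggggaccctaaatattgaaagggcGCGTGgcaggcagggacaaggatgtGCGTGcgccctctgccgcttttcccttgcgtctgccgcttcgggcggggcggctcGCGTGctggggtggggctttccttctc
Cyp1a1: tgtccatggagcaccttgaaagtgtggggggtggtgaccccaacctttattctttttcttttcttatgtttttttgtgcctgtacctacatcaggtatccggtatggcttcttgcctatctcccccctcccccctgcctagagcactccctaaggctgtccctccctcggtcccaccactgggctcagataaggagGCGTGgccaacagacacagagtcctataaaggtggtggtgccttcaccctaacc
Cyp1b1: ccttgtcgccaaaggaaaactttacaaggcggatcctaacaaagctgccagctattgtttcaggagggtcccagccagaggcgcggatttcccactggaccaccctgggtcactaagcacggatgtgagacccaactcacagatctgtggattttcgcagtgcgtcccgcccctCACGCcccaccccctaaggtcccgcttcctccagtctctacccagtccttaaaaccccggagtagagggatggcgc

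In GENCODE M21 (GRCm38), from which positions were taken, the genes lie apart except for the CYP1A pair. The count table lists all 8 genes under other version numbers than M21, so the spans used for counting may differ. Cyp1a1 spans chr9:57687928-57703824 on the plus strand and Cyp1a2 chr9:57676937-57683703 on the minus strand, so they are divergent neighbors. Ahr lies at chr12:35497974-35535038 (minus), Arnt at chr3:95434388-95497240 (plus), Ahrr at chr13:74211118-74292331 (minus), Cyp1b1 at chr17:79701537-79715061 (minus), Tiparp at chr3:65528410-65555518 (plus) and Aldh3a1 at chr11:61207537-61218421 (plus). In M21, exons of Ahr overlap those of Gm48236 and exons of Tiparp those of 4931440P22Rik. Because a strand setting is not given in the sources used here, reads of such pairs cannot be told apart.

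Total estimated counts per library ranged from 13003111 to 40240710 (median 28090641), and levels are given as CPM (counts scaled to a common library size by TMM). Markers followed the tissue labels. The summed level of 6 club cell markers had a median of 62700 CPM in PBS.AIR airways against 23800 in parenchyma, that of 6 smooth muscle markers 1130 against 204.3, and that of 6 alveolar type I markers 2960 against 5960. Cardiac muscle markers were also in the airway libraries (median sum 1410 CPM in PBS.AIR against 34.6 in parenchyma). In whole tissue, fewer cells of a type and less RNA per cell cannot be told apart. Log2 fold changes (log2FC) and adjusted p-values come from limma-voom with Benjamini-Hochberg adjustment over all genes of a fit (18250 at 11 weeks and 17381 at 3 weeks) unless another tool is named. A gene passed at an adjusted p under 0.05 and was called when its log2FC was also at least 1 or at most -1.

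Levels of the 8 genes differed widely. Per kb of exon in PBS.AIR airways, mean CPM was 35.6 for Aldh3a1, 13.1 for Ahr, 10.2 for Tiparp, 9.42 for Arnt, 4.02 for Cyp1b1, 2.06 for Cyp1a1 and 0.0496 for Ahrr. Over the 20 groups, the mean CPM of the receptor Ahr lay between 64.4 (HDM airways at 3 weeks) and 144.1 (PBS parenchyma at 3 weeks), and that of Arnt between 61.3 and 93.7. Cyp1a1 spanned the widest range, from 0.243 CPM in HDM airways at 3 weeks to 211.3 CPM in PBS.CS.DEX parenchyma. When the 20 group means of a gene were put in order, most neighbors lay closer than the larger of their SDs, in 19 of 19 steps for Tiparp and Cyp1a2, 18 of 19 for Ahr, Arnt, Ahrr, Cyp1a1 and Aldh3a1, and 17 of 19 for Cyp1b1. For Ahrr the step that exceeded the SD divided all 8 CS groups (lowest mean 1.63 CPM) from the 12 groups without CS (highest mean 0.965 CPM).

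**Figure D1:**
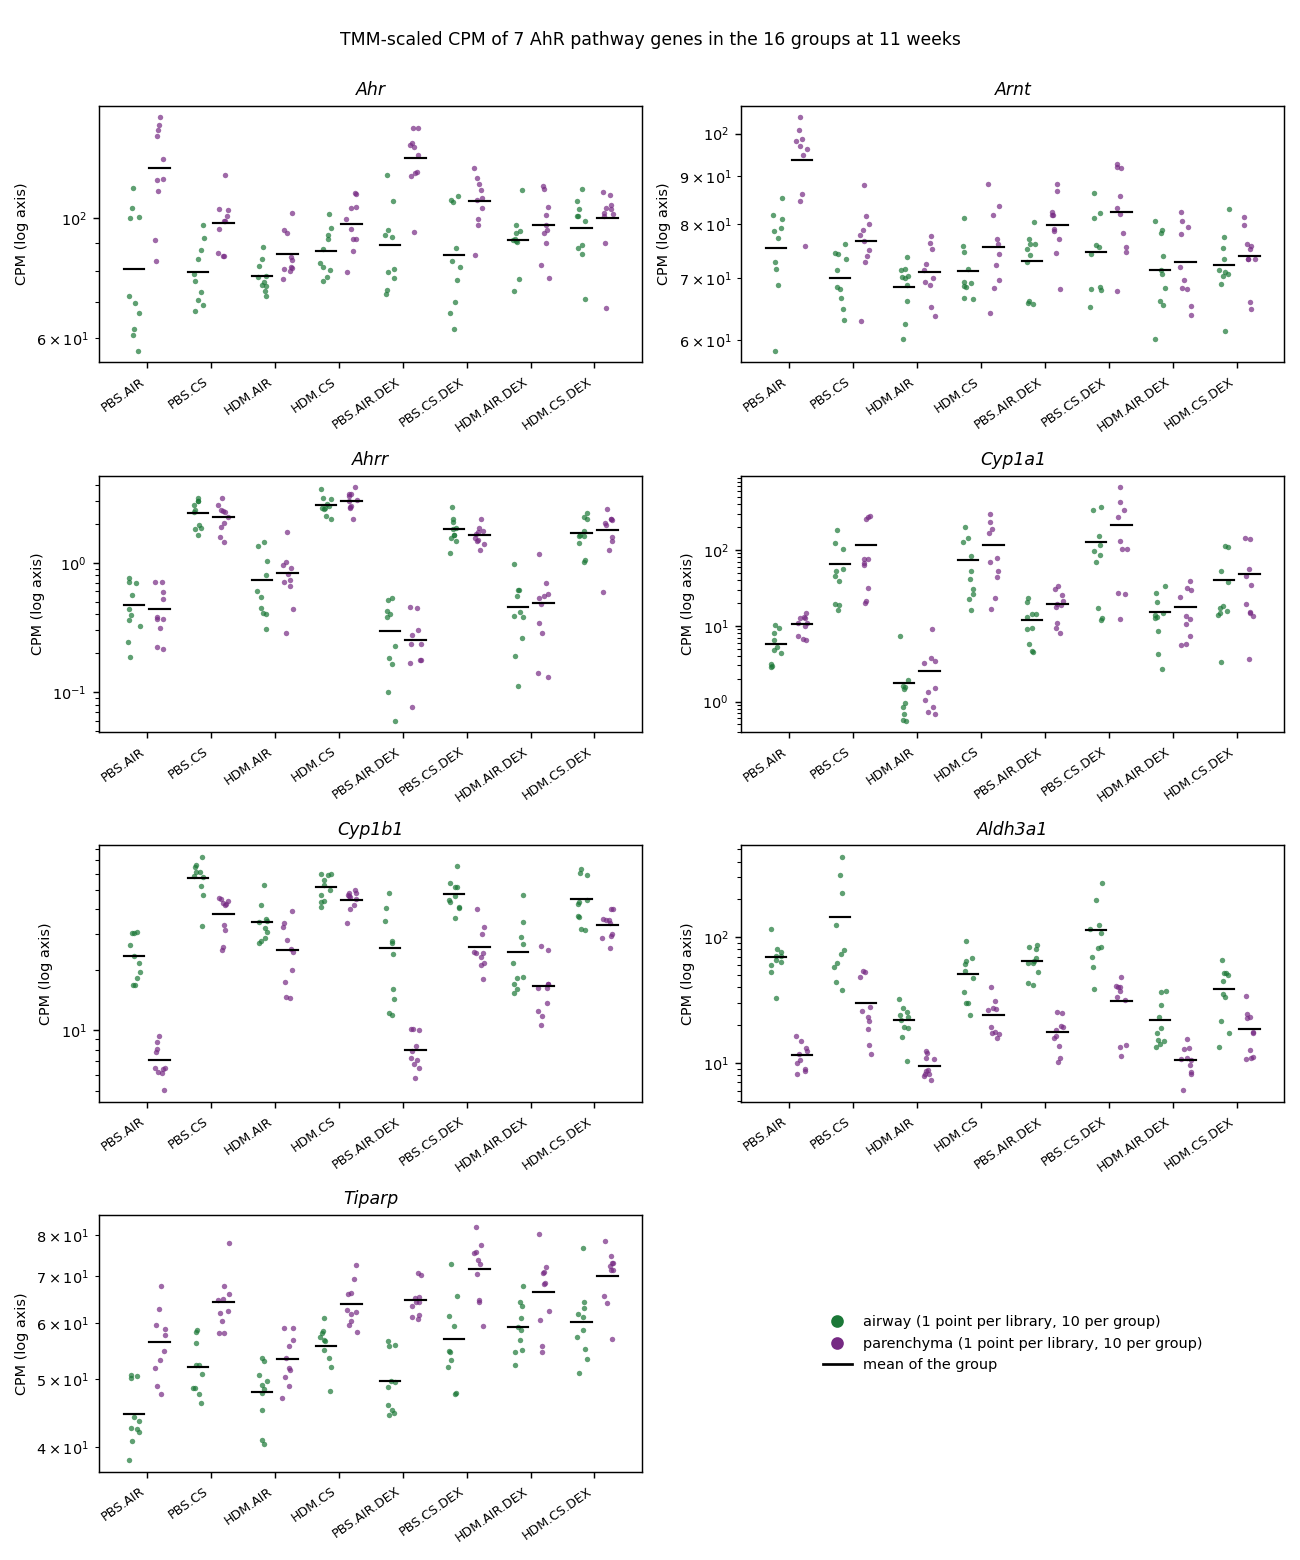
TMM-scaled CPM (log axis) of the 7 tested genes in the 16 groups at 11 weeks, with 1 point per library, 10 libraries per group, airway in green and parenchyma in purple, and a bar at each group mean. Ahrr was higher in every CS group mean than in any AIR group mean, while Ahr, Arnt and Tiparp stayed within narrow bands.

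The question at 11 weeks was how CS changed these genes in mice without and with HDM. Without DEX, CS raised Ahrr and Cyp1a1 past the call threshold in both tissues of both PBS and HDM mice, Cyp1b1 was called in PBS mice, and Aldh3a1 was called in PBS parenchyma and in both tissues of HDM mice. In PBS mice 3 of 7 tested genes were called higher in airways (Ahrr, Cyp1a1 and Cyp1b1), where 1.73% of all genes were, and 4 of 7 in parenchyma, where 4.21% were. In HDM mice 3 of 7 were called higher in airways (background 0.674%) and 3 of 7 in parenchyma (background 0.899%), in each case Ahrr, Cyp1a1 and Aldh3a1. No gene of the 7 was called lower with CS. The median log2FC of the 7 genes was 0.63 in PBS airways, 1.24 in PBS parenchyma, 0.56 in HDM airways and 0.88 in HDM parenchyma, whereas the median over all genes tested was between -0.01 and 0 in these comparisons.

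CS libraries did not overlap AIR libraries at all for several of the genes. In PBS mice the lowest CS library exceeded the highest AIR library for Ahrr, Cyp1a1 and Cyp1b1 in airways (0.647% of all genes) and in parenchyma (5.16% of all genes). In HDM mice this was so for Ahrr and Cyp1a1 in airways (0.329% of all genes) and for Ahrr, Cyp1a1 and Aldh3a1 in parenchyma (0.488% of all genes).

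The receptor and its partner changed little with CS. In PBS parenchyma Ahr had 83.5 to 153.3 CPM (median 123.3) in AIR and 85.2 to 120.3 CPM (median 98.7) in CS libraries, a log2FC of -0.31 ± 0.09 (SE) with an adjusted p of 0.0055. Arnt was also lower there, from 93.7 ± 8.73 to 76.7 ± 6.57 CPM (mean ± SD, n = 10 each), with a log2FC of -0.27 ± 0.06 and an adjusted p of 2.4e-05. The groups overlapped for both genes. Among all genes of that comparison 35.9% passed in either direction, so a small change that passed was common there. In PBS airways the log2FC was 0.01 ± 0.09 for Ahr and -0.11 ± 0.05 for Arnt, in HDM airways 0.13 ± 0.09 and 0.04 ± 0.05, and in HDM parenchyma 0.15 ± 0.09 and 0.06 ± 0.05, and none of these passed. The 8 endothelial markers, all detected, moved with the PBS parenchyma result, with summed levels of 3180 to 3930 CPM in AIR and 2100 to 3000 CPM in CS libraries, and their part in it was not tested.

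Ahrr, which encodes a repressor that competes with AhR for ARNT, rose in all 4 comparisons without DEX. In PBS airways it had 0.185 to 0.759 CPM (median 0.417) with AIR and 1.63 to 3.17 CPM (median 2.52) with CS, and in parenchyma 0.215 to 0.715 (median 0.375) and 1.44 to 3.18 CPM (median 2.36). All 10 CS libraries were above all 10 AIR libraries in both tissues. The rises were 5.46-fold (log2FC 2.45 ± 0.24, adjusted p 4.3e-15) in airways and 5.34-fold (2.42 ± 0.26, 1.6e-14) in parenchyma. In HDM mice the AIR libraries held 0.309 to 1.46 CPM in airways and 0.288 to 1.73 CPM in parenchyma, and the CS libraries 2.18 to 3.71 and 2.19 to 3.83 CPM, again without overlap. These were rises of 4.19-fold (2.07 ± 0.22, adjusted p 1.8e-12) and 3.83-fold (1.94 ± 0.22, 2.6e-12). Ahrr was the rarest of the tested genes, with 140 counts in total over the 10 PBS.AIR airway libraries and 729 over the PBS.CS airway libraries, and a filter at a CPM of 10 removes it.

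Cyp1a1, the enzyme gene most used as a readout of AhR activity, rose furthest of the 7, with a wide spread among CS libraries. In PBS airways it went from 2.85 to 10.2 CPM (median 4.99) with AIR to 16.4 to 183.2 CPM (median 48.8) with CS, and in PBS parenchyma from 6.55 to 14.8 CPM (median 10.9) to 19.8 to 282.1 CPM (median 72.1). The AIR and CS libraries did not overlap, and within the CS groups the highest library had 11.2 times the level of the lowest in airways and 14.2 times in parenchyma. The rises were 9.11-fold (log2FC 3.19 ± 0.73, adjusted p 0.00066) and 7.52-fold (2.91 ± 0.63, 9.5e-05). In HDM mice the AIR level was lower, 0.562 to 7.34 CPM (median 1.21) in airways and 0.694 to 9.05 CPM (median 1.43) in parenchyma, and the CS level was 16.2 to 203.9 CPM (median 46.9) and 16.8 to 301.03 CPM (median 74). CS therefore raised Cyp1a1 42-fold (5.39 ± 1.12, adjusted p 0.00017) in HDM airways and 42.6-fold (5.41 ± 1.01, 9.9e-06) in HDM parenchyma. The CS levels of HDM and PBS mice were alike in mean, 74.5 ± 63.2 against 65.6 ± 54.5 CPM in airways and 117.03 ± 97.8 against 117.2 ± 109.01 CPM in parenchyma (SD, n = 10 each), and the difference of the CS effect between HDM and PBS mice did not pass (2.21 ± 1.34 with an adjusted p of 0.26 in airways, 2.5 ± 1.19 with 0.089 in parenchyma). With a filter at a CPM of at least 10, the call of Cyp1a1 in HDM airways was lost (log2FC 5.40, adjusted p 0.063).

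Cyp1a2, the liver-type enzyme next to Cyp1a1, was hardly detected. At 11 weeks 14 of 40 CS airway libraries held a count of it (22 counts in all, at most 4 in a library), against 3 of 40 AIR airway libraries (3 counts), and 15 of 40 CS parenchyma libraries (28 counts, at most 4) against 7 of 40 AIR libraries (9 counts). At 3 weeks 1 of 21 airway and 0 of 22 parenchyma libraries held a count. Of 18 permutation tests of mean CPM (2-sided, 100000 resamples), CS against AIR and HDM against PBS within each background, none passed after Benjamini-Hochberg adjustment. The smallest p, 0.032 (adjusted 0.29), was shared by 2 of the tests, CS against AIR in HDM parenchyma, where 5 of 10 CS and 1 of 10 AIR libraries held a count, and HDM against PBS in CS parenchyma, where 5 of 10 HDM and 0 of 10 PBS libraries did. The 6 hepatocyte markers summed to a median of at most 9.33 CPM in the groups at 3 weeks and in those at 11 weeks without DEX, with Fgb at a median of 0 in all of them.

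Cyp1b1, which encodes the CYP1 enzyme of extrahepatic and mesenchymal tissues, rose more in parenchyma than in airways of PBS mice. Its level went from 16.8 to 30.9 CPM (median 22.5) with AIR to 33.1 to 72.8 CPM (median 59.9) with CS in PBS airways, and from 5.01 to 9.34 CPM (median 6.49) to 25 to 45.3 CPM (median 42.3) in PBS parenchyma. Both pairs of groups were fully separate. The rise was 2.46-fold (1.3 ± 0.16, adjusted p 6.2e-11) in airways and 5.36-fold (2.42 ± 0.21, 3e-19) in parenchyma, and the airway effect was smaller by 1.12 ± 0.27 on the log2 scale (adjusted p 0.0059). Among all genes 3.73% passed that test between tissues, and Cyp1b1 was the 1 gene of the 7 that did. In HDM mice the AIR level was already higher, 27.2 to 53 CPM in airways and 14.5 to 39.4 CPM in parenchyma, and CS added 1.48-fold (0.56 ± 0.16, adjusted p 0.0053) and 1.84-fold (0.88 ± 0.16, 8e-06), which passed without reaching the call threshold. In PBS parenchyma the 6 macrophage markers, all detected, summed to 671 to 1250 CPM with AIR and 2080 to 3440 CPM with CS, and their part in the result was not tested.

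Aldh3a1, an aldehyde dehydrogenase abundant in airway epithelium, rose with CS in HDM mice and in PBS parenchyma. In HDM airways it had 10.3 to 32 CPM (median 22.5) with AIR and 24.2 to 93.9 CPM (median 50.7) with CS, a 2.22-fold rise (1.15 ± 0.28, adjusted p 0.0013). In HDM parenchyma the groups were separate, 7.30 to 12.5 CPM against 15.8 to 40.4 CPM, and the rise was 2.38-fold (1.25 ± 0.34, 0.003). It was 2.36-fold (1.24 ± 0.33, adjusted p 0.0014) in PBS parenchyma, from 8.17 to 16.3 CPM with AIR to 11.7 to 53.9 CPM with CS. In PBS airways, 32.5 to 115.97 CPM with AIR stood against 38.2 to 434.3 CPM with CS, with medians of 68.3 and 76.4 CPM. There the log2FC of 0.63 ± 0.26 did not pass (adjusted p 0.096), while edgeR (1.07, adjusted p 0.003) and DESeq2 (1.07, 0.0017) passed it, and so did limma-voom without library X93 or without library X113 (adjusted p 0.03 at the lowest) and with the sets of 20 library codes, described below, as a block (0.61, adjusted p 0.037).

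Tiparp, which encodes an ADP-ribosyltransferase that marks AhR for loss, moved by small steps. In airways of PBS mice it had 44.5 ± 4.38 CPM with AIR and 52 ± 4.5 with CS (SD, n = 10 each), and in their parenchyma 56.4 ± 6.30 and 64.2 ± 5.81 CPM. The log2FC was 0.22 ± 0.06 (adjusted p 0.0072) and 0.21 ± 0.06 (0.0048) there, and 0.21 ± 0.06 (0.011) and 0.23 ± 0.06 (0.0019) in airways and parenchyma of HDM mice. All groups overlapped. Of all genes, 13.7% passed in PBS airways, 16.2% in HDM airways and 24.1% in HDM parenchyma, so passing by itself sets Tiparp little apart.

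**Figure D2:**
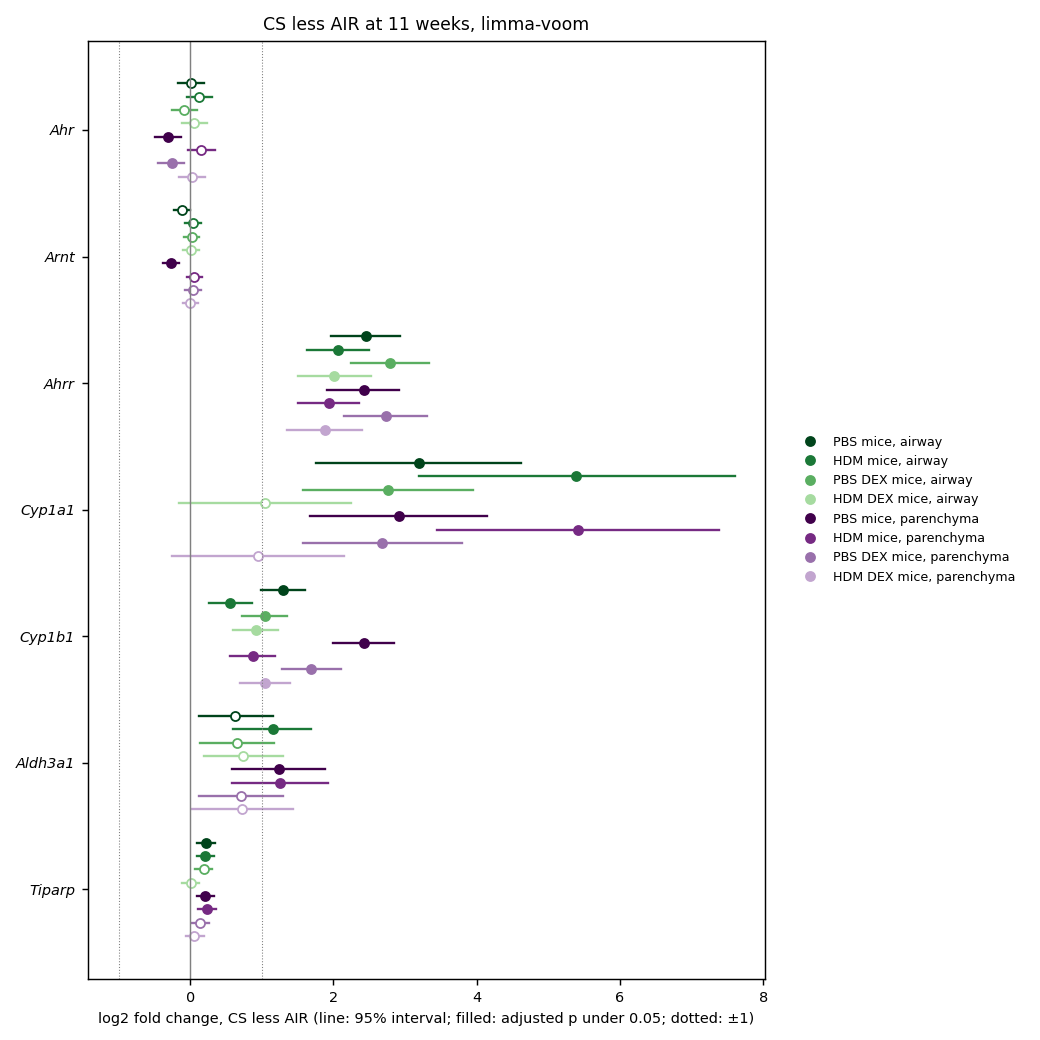
Log2 fold change of CS less AIR for the 7 tested genes in 4 backgrounds and both tissues, with 95% intervals, filled points for an adjusted p under 0.05 and dotted lines at -1 and 1. All 8 Ahrr points lie between 1.88 and 2.79, Cyp1a1 in HDM mice without DEX has the highest values (5.39 and 5.41) and the widest intervals, and Ahr and Arnt lie near 0.

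The CS effect differed between HDM and PBS mice for 3 of the 7 genes. The difference of the CS effect, HDM less PBS mice, was -0.74 ± 0.22 (adjusted p 0.011) in airways and -1.55 ± 0.27 (8e-07) in parenchyma for Cyp1b1. It was 0.46 ± 0.13 (0.0028) for Ahr and 0.33 ± 0.08 (0.00024) for Arnt in parenchyma, where CS lowered both genes in PBS mice and the estimates in HDM mice were above 0 without passing. These were 1 of 7 genes in airways, where 19.1% of all genes passed, and 3 of 7 in parenchyma, where 36% did. The counts are near these shares, so passing by itself sets the genes little apart.

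With DEX, the same comparison of CS with AIR gave a firm rise of Ahrr and a less certain one of Cyp1a1. In DEX-treated PBS mice 3 of 7 genes were called higher in airways (background 0.641%) and 3 of 7 in parenchyma (1.97%), in both tissues Ahrr, Cyp1a1 and Cyp1b1. In DEX-treated HDM mice 1 gene, Ahrr, was called in airways (0.252% of all genes) and Ahrr and Cyp1b1 in parenchyma (0.581% of all genes). Ahr passed lower with CS in parenchyma of DEX-treated PBS mice, where 18.2% of all genes passed in either direction. With the libraries of both times in the fit this Ahr value did not pass (log2FC -0.26, adjusted p 0.052). Ahrr rose 6.90-fold (2.79 ± 0.28, adjusted p 1.4e-14) and 6.65-fold (2.73 ± 0.30, 1.4e-13) in airways and parenchyma of PBS mice and 4.04-fold (2.01 ± 0.26, 7.6e-09) and 3.67-fold (1.88 ± 0.27, 7.8e-08) in HDM mice. Only 1 HDM.CS.DEX parenchyma library overlapped HDM.AIR.DEX for Ahrr, and the other 3 pairs of groups were separate. The share of all genes without overlap was not counted for comparisons with DEX.

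For Cyp1a1 under DEX, the CS libraries spread over the range of AIR. PBS.CS.DEX held 11.8 to 370.2 CPM (median 90.4) in airways and 12.4 to 672.4 CPM (median 117.1) in parenchyma, against 4.55 to 23.3 and 8.12 to 33.7 CPM in PBS.AIR.DEX, and 7 of 10 CS libraries were above every AIR library in each tissue. Those rises passed (2.76 ± 0.61 with an adjusted p of 0.0011 and 2.68 ± 0.56 with 0.00015). HDM.CS.DEX held 3.38 to 113.5 CPM (median 17.6) in airways and 3.67 to 143.95 CPM (median 27.1) in parenchyma against 2.73 to 33.9 and 5.67 to 38.9 CPM in HDM.AIR.DEX. There the log2FC was 1.05 ± 0.62 (adjusted p 0.36) and 0.95 ± 0.61 (0.35), with 4 of 10 CS libraries above all AIR libraries in each tissue, and DESeq2 passed the parenchyma value (1.43, adjusted p 0.045). In HDM mice the CS effect on Cyp1a1 was smaller with DEX than without, by a difference of -4.46 ± 1.18 on the log2 scale in parenchyma (adjusted p 0.0099). That was the 1 gene of 7 that passed, beside 5.66% of all genes, in a contrast added after the data were seen, and the call was lost with the filter at a CPM of at least 10 (-4.44, adjusted p 0.14). The airway difference of -4.35 ± 1.28 did not pass (adjusted p 0.087).

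In AIR mice given HDM, DEX raised Cyp1a1. It went from 0.562 to 7.34 CPM to 2.73 to 33.9 CPM in airways, a 9.23-fold rise (3.21 ± 1.17, adjusted p 0.028), and from 0.694 to 9.05 CPM to 5.67 to 38.9 CPM in parenchyma, a 7.94-fold rise (2.99 ± 1.06, 0.022). Tiparp rose by 0.29 ± 0.06 (adjusted p 7.5e-05) and 0.28 ± 0.06 (0.00013), Cyp1b1 fell by 0.59 ± 0.16 (0.0029) and 0.61 ± 0.18 (0.0064), and Ahrr had a log2FC of -0.73 ± 0.29 (0.047) and -0.76 ± 0.29 (0.037). The Cyp1a1 calls were lost with the filter at a CPM of at least 10 (adjusted p 0.28 and 0.22). The Ahrr values did not pass with library quality weights (0.12 and 0.081) or with only the compared groups in the fit (0.12 and 0.091), nor did the parenchyma value without the shallowest library, X32 (0.06). These were 4 of 7 genes in each tissue, where 28.6% and 28.5% of all genes passed. In HDM.CS mice DEX lowered Ahrr by 0.79 ± 0.18 (adjusted p 0.0008) in airways and 0.82 ± 0.18 (0.00086) in parenchyma on the log2 scale. Cyp1a1 had values of -1.14 ± 0.53 (adjusted p 0.18) and -1.47 ± 0.52 (0.062) there, and the latter passed with the sets of 20 library codes as a block (adjusted p 0.046), with library quality weights (0.018) and with the libraries of both times in the fit (0.035). In PBS.AIR mice DEX raised Tiparp in parenchyma (0.21 ± 0.06, adjusted p 0.0066) and lowered Arnt there (-0.23 ± 0.06, 0.00098), while the airway value of Tiparp (0.17 ± 0.06, 0.042) did not pass under 8 alternatives (0.053 to 0.12). The CS effect on Arnt in PBS parenchyma differed with DEX by 0.31 ± 0.08 (adjusted p 0.0081), where 3.22% of all genes passed. In PBS.CS mice Cyp1b1 fell in parenchyma (-0.57 ± 0.16, 0.0074), the 1 gene of 7 that passed there beside 16.9% of all genes, and no gene of the 7 passed in airways, where 11.3% of all genes did. Markers moved with DEX in HDM mice: in HDM.AIR and HDM.AIR.DEX libraries the 6 alveolar type II markers summed to 17000 to 24700 and 26800 to 42400 CPM in parenchyma and the 6 B cell markers to 5570 to 11300 and 1650 to 4470 CPM in airways. In HDM.CS and HDM.CS.DEX parenchyma the alveolar type II markers summed to 16300 to 23900 and 24400 to 35800 CPM. Their part in the results was not tested.

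Levels of Cyp1a1 in CS libraries moved together in both tissues. The libraries carry codes from X1 to X204, and 10 sets of 20 consecutive codes each held 1 library of each group at 11 weeks, though the labels do not say what a set is. In HDM.CS mice the 4 highest Cyp1a1 libraries came from sets 7 to 10 in airways (83, 142.4, 203.9 and 125.8 CPM) and from the same 4 sets in parenchyma (186.4, 230.95, 301.03 and 166.6 CPM), while sets 5 and 6 were lowest in both (16.2 and 22.6 CPM, then 16.8 and 23.6 CPM). In PBS.CS mice 3 of the 4 highest sets were shared, and set 9 was low in both tissues (18.7 and 19.8 CPM). In HDM.CS.DEX mice sets 1, 4, 9 and 10 were highest in both tissues. The parenchyma library had the higher level in 10 of 10 sets in PBS.AIR, PBS.CS, HDM.CS and PBS.AIR.DEX, although the difference between tissues passed in no group for Cyp1a1 when all libraries were treated as independent.

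**Figure D3:**
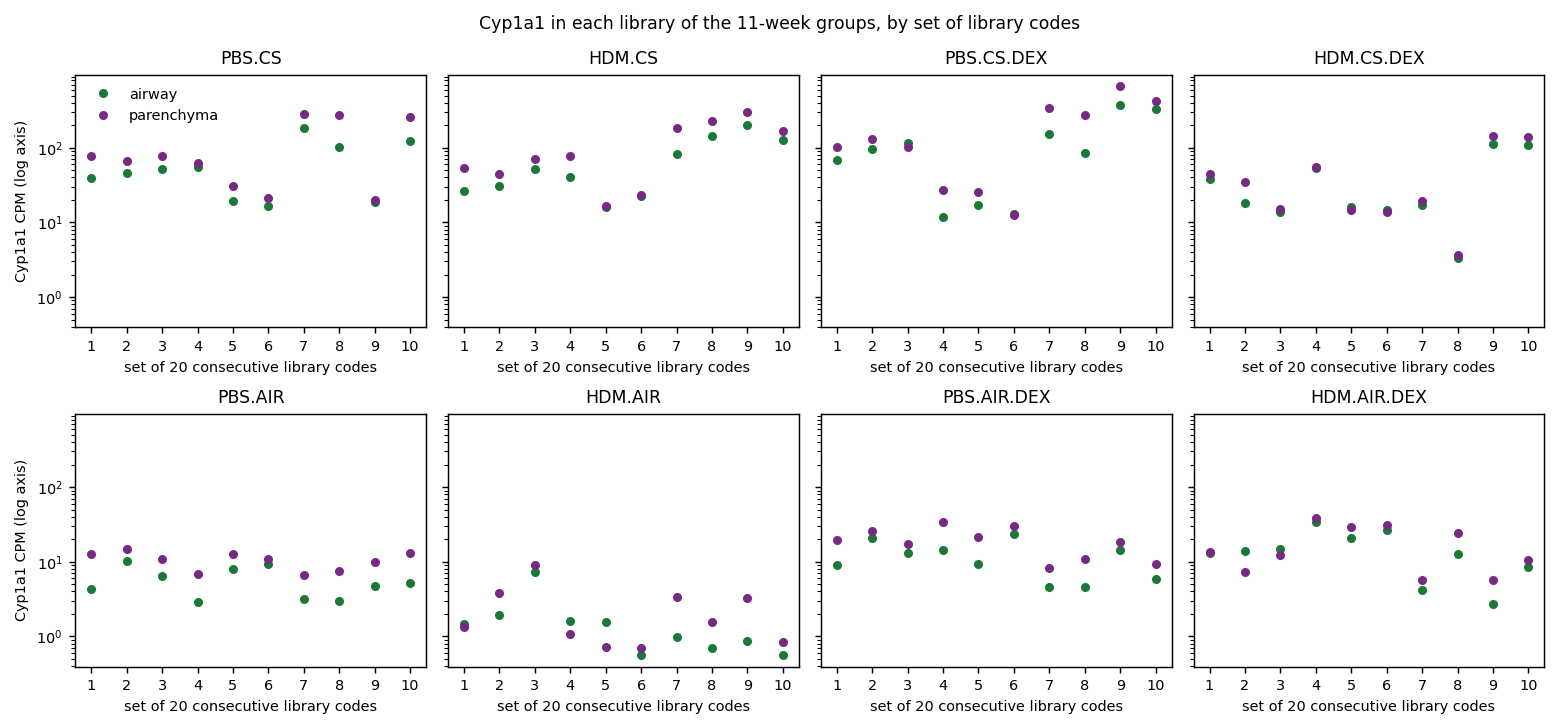
Cyp1a1 CPM (log axis) in each library of the 16 groups at 11 weeks, by set of 20 consecutive library codes on the x axis, with airway in green and parenchyma in purple. In the CS groups the points of both tissues largely follow each other from set to set and span from 3.38 to 672.4 CPM. In PBS.AIR and in HDM.AIR 2 of the 4 highest sets were shared by the tissues. In PBS.AIR.DEX and in HDM.AIR.DEX 3 of 4 were shared, as many as in PBS.CS and PBS.CS.DEX.

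Within these sets the CS rise held for most of the genes. Ahrr was higher with CS in 10 of 10 sets in all 8 comparisons, by a median of 2.33 on the log2 scale in PBS airways (1.21 to 3.06) and 2.06 in HDM airways (0.63 to 2.99). Cyp1a1 was higher in 10 of 10 sets in the 4 comparisons without DEX, by 0.80 to 5.82 in PBS airways and 2.83 to 7.79 in HDM airways, and in 8 of 10 sets in each tissue of PBS mice with DEX, but in 6 of 10 (airways) and 7 of 10 (parenchyma) in HDM mice with DEX. Cyp1b1 was higher in 10 of 10 or 9 of 10 sets in every comparison. Aldh3a1 was higher in 10 of 10 sets in both tissues of HDM mice, in 8 of 10 in PBS parenchyma and in 6 of 10 in PBS airways.

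HDM by itself lowered Cyp1a1 and raised Cyp1b1. At 3 weeks Cyp1a1 had 3.04 to 26.9 CPM (median 6.14) in PBS airways and 0.0774 to 0.408 CPM (median 0.231) in HDM airways, and 2.11 to 11.0 CPM (median 6.06) against 0.0447 to 1.33 CPM (median 0.352) in parenchyma. Every HDM library was below every PBS library. The level was 26.7-fold lower in airways (log2FC -4.74 ± 0.57, adjusted p 1e-09) and 17.6-fold lower in parenchyma (-4.14 ± 0.53, 2.7e-09), where the HDM airway group held 69 counts of it in total. Cyp1b1 rose 1.60-fold in airways (0.68 ± 0.21, 0.0044) and 2.67-fold in parenchyma (1.42 ± 0.28, 1.6e-05), from 5.99 to 12.7 CPM to 15.4 to 48.5 CPM with no overlap. Of the 7 genes 2 were called in airways, Cyp1a1 and Aldh3a1, where 24% of all genes were, and 3 in parenchyma, Cyp1a1, Ahr and Cyp1b1, where 29.6% were. For HDM against PBS, here and below, the share of all genes whose groups did not overlap was not counted. At 3 weeks 74.6% of all genes passed in airways and 77.7% in parenchyma.

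The receptor itself was lower at 3 weeks of HDM. Ahr fell from 94.5 ± 23.3 (n = 11) to 64.4 ± 7.42 CPM (n = 10) in airways (-0.56 ± 0.10, adjusted p 6.7e-06) and from 144.1 ± 19.9 (n = 12) to 73.8 ± 8.80 CPM (n = 10) in parenchyma (-1.02 ± 0.10, 3.4e-12), where 109.02 to 189.2 CPM in PBS and 56.9 to 87.3 CPM in HDM libraries did not overlap. Aldh3a1 fell in airways, from 35.5 to 92.1 CPM to 10.2 to 58.3 CPM (-1.46 ± 0.19, adjusted p 1.2e-08), and its value in parenchyma was -0.38 ± 0.30. Arnt and Tiparp were lower in parenchyma (-0.26 ± 0.05, 6e-06, and -0.37 ± 0.07, 2e-05). Arnt also passed lower in airways, but not under several alternatives. Among these were DESeq2 (-0.08, adjusted p 0.12) and limma-voom with the sets of codes as a block (-0.09, 0.097). Ahrr was higher in parenchyma (0.62 ± 0.27, adjusted p 0.036, or 0.065 with the sets of codes as a block), and its airway value of 0.48 ± 0.25 did not pass. The median over all genes in this fit was -0.07 in airways and -0.13 in parenchyma. Markers of other cells moved with HDM at 3 weeks: the 6 macrophage markers summed to 381 to 1140 CPM in PBS and 3730 to 26000 CPM in HDM parenchyma, the 8 endothelial markers to 2030 to 2830 and 773 to 1110 CPM there, and the 6 club cell markers to 44600 to 101000 and 15000 to 39400 CPM in airways. All of these markers were detected, and their part in the results was not tested.

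At 11 weeks in air, HDM gave changes of the same sign for Cyp1b1 and Aldh3a1 and a less certain one for Cyp1a1. Cyp1b1 rose 1.52-fold in airways (0.60 ± 0.16, adjusted p 0.00069) and 3.57-fold in parenchyma (1.84 ± 0.22, 2.7e-13), where all 10 HDM libraries (14.5 to 39.4 CPM) were above all 10 PBS libraries (5.01 to 9.34 CPM). Aldh3a1 was 3.10-fold lower in airways (-1.63 ± 0.28, 1.3e-07), with 10.3 to 32 CPM in HDM and 32.5 to 115.97 CPM in PBS libraries. Cyp1a1 was 5.32-fold lower in parenchyma (-2.41 ± 1.08, adjusted p 0.045), a call lost in 13 of 20 fits that left out a library (0.042 to 0.068), with the filter at a CPM of at least 10 (0.25), with no filter (0.063) and with quality weights (0.061). The airway log2FC of -2.04 ± 1.24 did not pass (adjusted p 0.15), while edgeR (-1.69, 0.014), DESeq2 (-1.72, 0.0021) and limma-voom with only the compared groups in the fit (-2.06, 0.00011) passed it. Ahrr rose in parenchyma (0.93 ± 0.29, 0.0034) and in airways (0.63 ± 0.29, 0.047, which did not pass in 11 of 20 fits that left out a library and under 6 other alternatives), and Ahr (-0.44 ± 0.09, 1.6e-05) and Arnt (-0.33 ± 0.06, 4.9e-08) fell in parenchyma. Among all genes 19.1% were called in airways and 19.2% in parenchyma, and of the 7 genes 1 (Aldh3a1) and 2 (Cyp1b1 and Cyp1a1) were. Passing in either direction was common, with 61.1% of all genes in airways and 59.5% in parenchyma. Of the 7 genes 3 and 5 passed, so passing by itself sets them little apart. The PBS.AIR and HDM.AIR libraries of this comparison are also the controls of the comparisons of CS with AIR. Macrophage markers summed to 671 to 1250 CPM in PBS.AIR and 1540 to 14700 CPM in HDM.AIR parenchyma, and club cell markers to 45900 to 87000 and 12200 to 32600 CPM in airways. In parenchyma the 8 endothelial markers summed to 3180 to 3930 CPM in PBS.AIR and 791.44 to 2080 CPM in HDM.AIR, and the 6 alveolar type I markers to 5420 to 6670 and 2120 to 3760 CPM. The part of these markers in the results was not tested.

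Under CS, few of the genes differed between HDM and PBS mice. Aldh3a1 in airways was the only gene of the 7 that passed without DEX (-1.11 ± 0.26, adjusted p 0.00034), where 33.1% of all genes passed, and no gene of the 7 passed in parenchyma, where 9.95% did. Cyp1a1 had 0.17 ± 0.51 and 0.09 ± 0.51, with intervals from -0.82 to 1.16 and from -0.90 to 1.08. With CS and DEX together Cyp1a1 was lower in HDM than in PBS mice, by 1.55 ± 0.53 (adjusted p 0.015) in airways and 1.94 ± 0.53 (0.0037) in parenchyma on the log2 scale, and so was Aldh3a1 in airways (-1.54 ± 0.27, 9.7e-07). With only the compared groups in the fit the Cyp1a1 values did not pass (adjusted p 0.11 and 0.055). Cyp1b1 passed higher in parenchyma, but not under several alternatives, among them edgeR (0.39, adjusted p 0.082) and DESeq2 (0.37, 0.089). With CS and DEX 2 of the 7 genes passed in each tissue, beside 33.6% of all genes in airways and 22% in parenchyma. With AIR and DEX, Cyp1a1 had 0.16 ± 0.69 and -0.21 ± 0.64, Aldh3a1 was lower in airways (-1.62 ± 0.28, 2.8e-07) and Cyp1b1 higher in parenchyma (1.06 ± 0.22, 2.6e-05). In that comparison 2 of the 7 genes passed in airways and 3 in parenchyma, where 49.7% and 42.1% of all genes did.

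**Figure D4:**
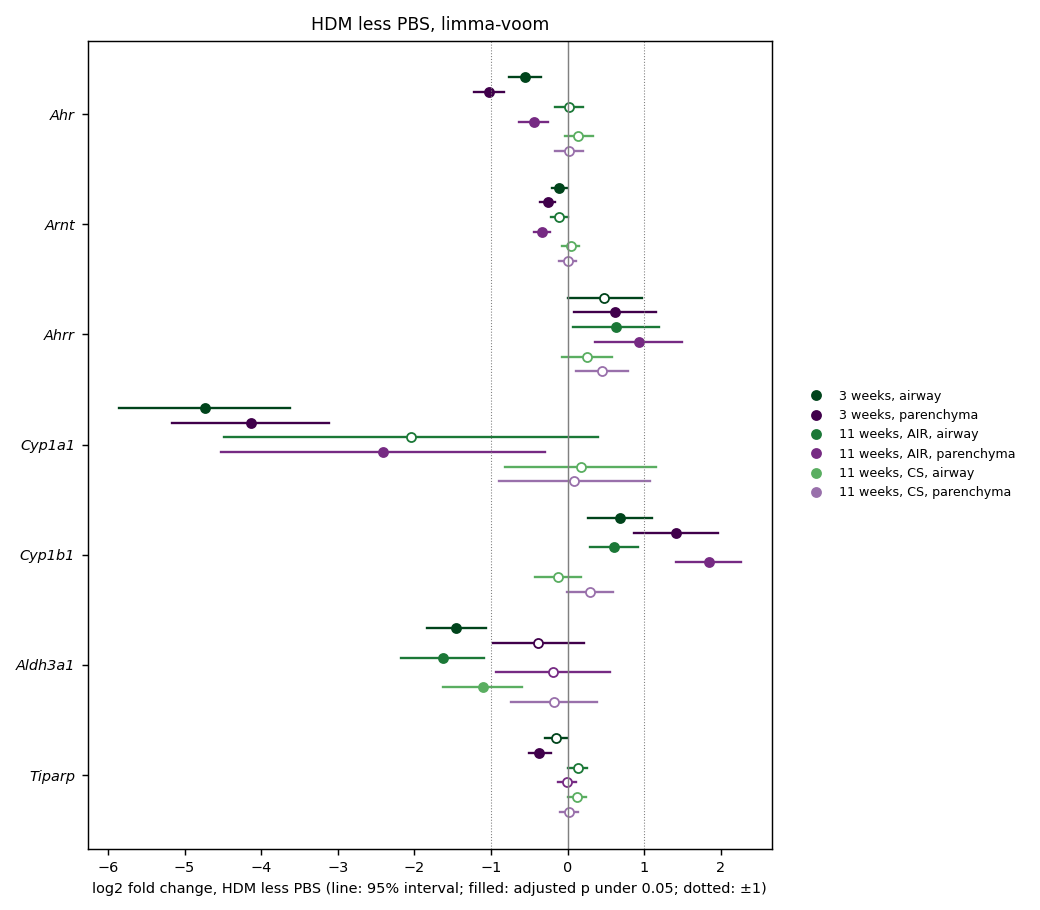
Log2 fold change of HDM less PBS for the 7 tested genes at 3 weeks and, at 11 weeks, in AIR and in CS mice without DEX, with 95% intervals, filled points for an adjusted p under 0.05 and dotted lines at -1 and 1. Cyp1a1 lies at -4.74 and -4.14 at 3 weeks, at -2.04 and -2.41 at 11 weeks in air and at 0.17 and 0.09 under CS.

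Airways and parenchyma differed at baseline for 5 of the 7 genes. In PBS.AIR mice Aldh3a1 was higher in airways by 2.60 ± 0.32 on the log2 scale (69.1 ± 21.4 against 11.5 ± 2.73 CPM, adjusted p 2.3e-12) and Cyp1b1 by 1.75 ± 0.22 (23.5 ± 5.79 against 7.06 ± 1.36 CPM, 3.8e-12). Ahr (-0.60 ± 0.09), Arnt (-0.28 ± 0.06) and Tiparp (-0.30 ± 0.06) were lower in airways, while 56.4% of all genes passed in either direction. In HDM.AIR mice 2 of 7 passed, Aldh3a1 (1.16 ± 0.34, adjusted p 0.014) and Cyp1b1 (0.52 ± 0.16, 0.023, or 0.071 with only these groups in the fit), where 11.4% of all genes did. Over the 10 comparisons of tissues, Aldh3a1 passed in all but HDM.AIR.DEX (0.99 ± 0.35, 0.059), and Ahrr and Cyp1a1 passed in none. These tests treated the libraries as independent, since the labels do not pair the tissues of a mouse, and by sets of codes Cyp1a1 was lower in airways in 10 of 10 sets in 4 groups, as given above.

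Genes that accompany the pathway were counted from lists chosen by hand. None of the 3 listed chaperone genes of the receptor complex (Hsp90aa1, Hsp90ab1 and Ptges3) passed in any of the 8 comparisons of CS with AIR, beside 13.7% of all genes in PBS airways and 35.9% in PBS parenchyma. Of 8 coregulator genes, 1 passed higher in each tissue of PBS mice (Relb), 2 passed lower in PBS parenchyma (Ncoa2 and Nrip1) and 1 lower in HDM airways (Relb). Of 5 tested genes for ARNT relatives and partners, Arnt2 rose in PBS mice, from 1.71 to 5.55 CPM in airways (1.75 ± 0.29, adjusted p 1.1e-06) and from 0.895 to 8.80 CPM in parenchyma (3.39 ± 0.35, 1.2e-15), but fell in HDM airways (-0.63 ± 0.19, 0.01). Epas1 passed lower in PBS parenchyma and higher in both tissues of HDM mice, and Hif1a passed lower in both tissues of HDM mice.

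Of 16 further genes known as AhR targets 14 were tested, and with CS 4 passed higher and 0 lower in PBS airways, 6 and 0 in PBS parenchyma, 6 and 2 in HDM airways and 6 and 2 in HDM parenchyma. Of all genes, 7.66%, 17.7%, 6.07% and 10% passed higher and 6.03%, 18.2%, 10.1% and 14.1% lower in these comparisons, in the same order. The median log2FC of the 14 targets was 0.33, 0.62, 0.24 and 0.29. Nqo1, a quinone reductase that NRF2 also controls, rose in all 4 comparisons, from a mean of 8.78 to 57.6 CPM in PBS airways (2.19 ± 0.32, adjusted p 4.1e-08) and from 3.46 to 23.2 CPM in HDM airways (2.53 ± 0.43, 3.3e-06), with log2FC of 1.97 ± 0.41 and 2.29 ± 0.45 in parenchyma and no overlap in any of the 4. Ugt1a6a rose in all 4 as well (1.07 ± 0.14, 1.54 ± 0.15, 1.2 ± 0.14 and 1.08 ± 0.14, in the order PBS airway, PBS parenchyma, HDM airway, HDM parenchyma), but it shares exons with Ugt1a6b, and how reads were divided between them is uncertain. The same limit of close copies applies to Cyp2a5, which was called in HDM airways (1.26 ± 0.38, adjusted p 0.012) and parenchyma (1.36 ± 0.39, 0.0044), and to Gsta1, called in HDM airways (2.24 ± 0.64, 0.0069). Slc7a5, an amino acid transporter that carries AhR ligands, was higher in PBS parenchyma (1.04 ± 0.18, 9.4e-07) and lower in HDM airways (-0.95 ± 0.12, 1e-09) and parenchyma (-1.05 ± 0.14, 1.3e-09). Scin, which encodes an actin-severing protein, also fell in both tissues of HDM mice (-1.13 ± 0.28 and -1.31 ± 0.42).

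Beside these, 8 antioxidant genes known as NRF2 targets were counted. In PBS mice 6 of 8 passed higher in airways and 7 of 8 in parenchyma, with medians of 0.46 and 0.71, whereas in HDM mice 2 of 8 passed higher in airways and 1 of 8 in parenchyma, where 3 of 8 passed lower, with medians of 0.02 and -0.05 (the shares of all genes are those given for the targets). The test of the difference, the CS effect in HDM less that in PBS mice, passed lower for 4 of 8 in airways and 5 of 8 in parenchyma and higher for none, where 11.4% and 18.7% of all genes passed lower. Slc7a11, the cystine transporter, was at 2.03 ± 0.26 and 2.70 ± 0.30 in PBS airways and parenchyma and at -0.27 ± 0.19 (adjusted p 0.35) and -0.74 ± 0.19 (0.0013) in HDM mice. Gpx2 rose in all 4 (0.70 ± 0.22, 1.27 ± 0.25, 1.01 ± 0.23 and 0.97 ± 0.25 in the order PBS airway, PBS parenchyma, HDM airway, HDM parenchyma). Enzymes of tryptophan catabolism, which make endogenous AhR ligands, were counted in the same way. Of 9 tested, Ido2, Il4i1 and Kynu passed higher in both tissues of PBS mice (7.66% of all genes in airways and 17.7% in parenchyma). In both tissues of HDM mice Kyat1 passed higher (6.07% and 10%), while Ido1, Il4i1 and Kmo passed lower (10.1% and 14.1%). The difference between HDM and PBS mice passed lower for 3 of 9 in airways (11.4% of all genes) and 4 of 9 in parenchyma (18.7%). Il4i1, Kmo and Kynu were among them in both tissues, and Kyat1 passed higher in airways (7.72%). Il4i1 went from 3.86 to 26.5 CPM in PBS parenchyma (2.79 ± 0.42, adjusted p 2.2e-08) and from 60.7 to 28.2 CPM in HDM parenchyma (-1.01 ± 0.26, 0.0018). The AIR level of Il4i1 in HDM parenchyma was thus above the CS level in PBS parenchyma.

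**Figure D5:**
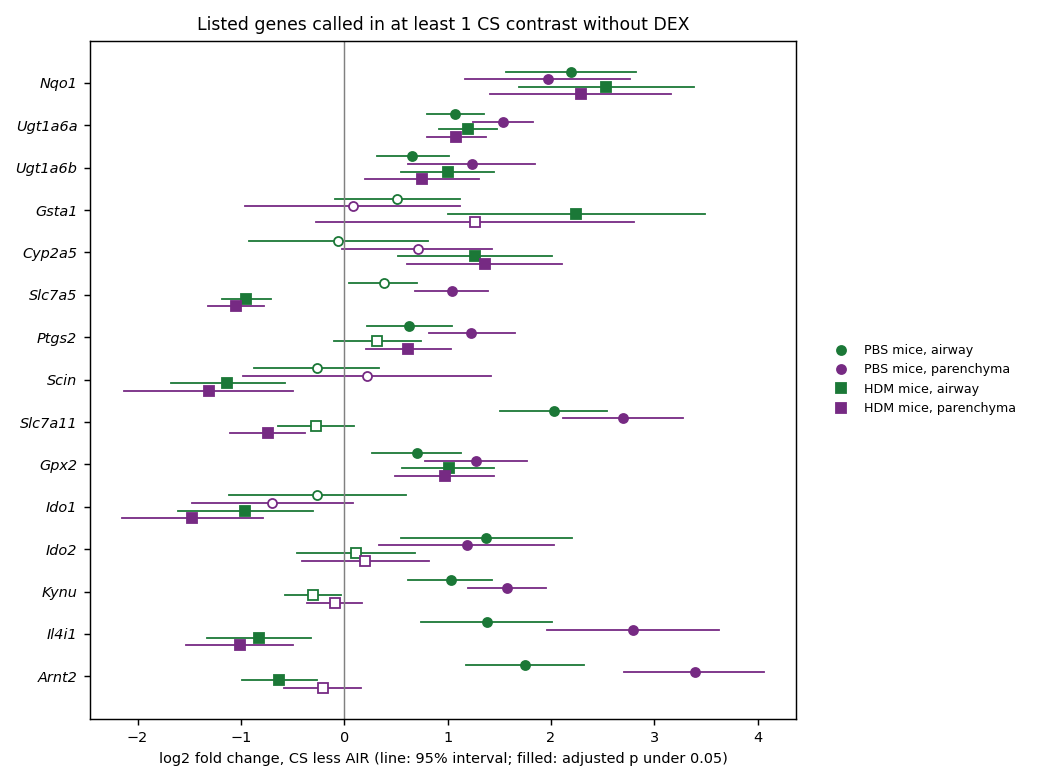
Log2 fold change of CS less AIR with 95% intervals for the listed pathway and NRF2 target genes called in at least 1 of the 4 comparisons without DEX, circles for PBS and squares for HDM mice, airway in green and parenchyma in purple, filled for an adjusted p under 0.05. Nqo1 lies between 1.97 and 2.53 in all 4, while Slc7a5, Slc7a11, Il4i1 and Arnt2 are above 0 in PBS parenchyma and below 0 in HDM parenchyma.

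Over the 20 group means of log2 CPM, the likeness of other genes to the members was described by Pearson's r among 15205 genes with a mean of at least 1 CPM. The means share the scaling of libraries and are not independent, and no test was made. Nearest to Cyp1a1 were Lix1 (r 0.937), Prox2 (0.885), Myom3 (0.883), Ttc38 (0.881) and Ptk7 (0.880). Nearest to Cyp1b1 were Cp (0.959), Krt87 (0.935), Psapl1 (0.925), Klk10 (0.921) and Kcnj10 (0.908), and nearest to Ahrr were Klk13 (0.880), Akr1b8 (0.809), Slc39a4 (0.796), Hpx (0.784) and Pnliprp1 (0.783). Among the pairs of a member with Cyp1a1, Cyp1b1 or Ahrr, Ahrr and Cyp1b1 were the most alike (r 0.773). The value was 0.510 between Ahrr and Cyp1a1, 0.176 between Cyp1a1 and Cyp1b1 and -0.712 between Ahr and Cyp1b1. Pairs among the other members are not given here. By Spearman's rho 2 of the 5 genes named for Cyp1a1, 2 of those for Cyp1b1 and 3 of those for Ahrr were among the 5 nearest.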

How the data were processed

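Airway and parenchyma of the lungs were separated by blunt dissection, and RNA was sequenced on a NovaSeq as 100 bp single reads. The submitters' processing notes name bcl2fastq 2.20.0.422, STAR 2.5.1b, RSEM 1.2.31 and kallisto 0.44.0 with mouse mm10; which of these made the table, and the strand setting, are not given in the sources used here. The authors deposited 1 table of estimated counts per gene, unnormalized, for 203 libraries and 43346 identifiers, of which 20.3% of values above 0 were not whole. Groups were taken from the labels. Symbols and positions came from GENCODE M21 (42462 identifiers matched, 23106 of them in the same version).

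Counts were rounded, genes were kept if 9 or more libraries reached the CPM that 10 counts give at the median depth, and limma-voom 3.58.1 (edgeR 4.0.16 for TMM factors, R 4.3.3) was fitted with 1 mean per group, on the 160 libraries at 11 weeks (40 contrasts) and the 43 at 3 weeks (4 contrasts) separately. An adjusted p under 0.05 passed, and a call also needed an absolute log2FC of at least 1. Levels are CPM on TMM-scaled library sizes. Log2 CPM for the likeness of patterns used a prior count of 2. Cyp1a2, under the filter, was tested by permutation of mean CPM (scipy 1.17.1). The scripts were tested on simulated data. No pair of libraries within a group agreed within sampling noise (lowest chi-square per degree of freedom 8.49). The labels do not say which libraries came from the same mouse, so p-values measure the spread between libraries. Total counts per library (13003111 to 40240710) limit rare genes, and totals cover counting error only.

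The members and lists were chosen with earlier results of these data known. Some genes of the lists are not reported here and were left out of their counts. Named were all 8 members, of each list at most the 6 called genes with the largest absolute log2FC and Nqo1, and the 5 genes most like Cyp1a1, Cyp1b1 and Ahrr in pattern. Slc7a5 and listed genes outside this rule that made up counts of 5 or fewer were named after their values were seen. As alternatives, edgeR (quasi-likelihood) and DESeq2 1.42.0 tests were run, with DESeq2's size factors, other filters, other sets of libraries in the fit, quality weights, the sets of 20 codes as a block, leaving out single libraries, a prior count of 0.5, library totals, transcript lengths, Spearman's rho and the motif TNGCGTG. The fits on only the groups compared and without library X32, and the contrast of CS by DEX in HDM mice, were added after seeing the data.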

Additional observations from a re-analysis of the deposited data

Results flagged for a closer look

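The 7 tested genes were examined in each of the 18 groups of 10 libraries, and 8 of these sets held a library farther from the others than Dixon's 95% limit, where chance, at about 1 in 20, gives 6.3. Cyp1a1 stood out in the HDM.AIR libraries X49 of airway (7.34 CPM, the others 0.562 to 1.91) and X50 of parenchyma (9.05 CPM, the others 0.694 to 3.81), which carry neighboring codes of the same set. Ahrr stood out in HDM.AIR parenchyma (X110, 1.73 CPM, the others 0.288 to 1.02). Ahr was low in HDM.CS.DEX parenchyma (X160, 68.3 CPM, the others 90.1 to 111.9) and in PBS.AIR.DEX parenchyma (X168, 94.1 CPM, the others 119.6 to 146.6). Tiparp was high in HDM.CS.DEX airways (X199, 76.8 CPM, the others 50.9 to 64.4), PBS.CS parenchyma (X194, 77.9 CPM, the others 58 to 67.8) and HDM parenchyma at 3 weeks (X4, 66.5 CPM, the others 51.7 to 58.4).

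Effects of CS differed between groups by a test of the difference (limma-voom, adjusted over all genes) in 7 cases. The CS effect in HDM less that in PBS mice was -0.74 (adjusted p 0.011) in airways and -1.55 (8e-07) in parenchyma for Cyp1b1, 0.46 (0.0028) for Ahr in parenchyma and 0.33 (0.00024) for Arnt in parenchyma. The airway less the parenchyma effect in PBS mice was -1.12 (0.0059) for Cyp1b1. The effect with DEX less that without was 0.31 (0.0081) for Arnt in PBS parenchyma and -4.46 (0.0099) for Cyp1a1 in HDM parenchyma. Of all genes, 19.1% (airways) and 36% (parenchyma) passed the test between HDM and PBS mice, and 3.73% that between tissues. For the tests between DEX and no DEX the shares were 3.22% in PBS parenchyma and 5.66% in HDM parenchyma.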

How the results depend on the processing

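The pairs of gene and contrast named in the text were followed under the alternatives. Apart from single libraries left out, 1475 values kept direction and side of the threshold, 52 no longer passed, 25 newly passed and 6 changed sign. The strictest filter, a CPM of at least 10 in 9 libraries, removes Ahrr and left 0 genes called with CS in HDM DEX airways, 1 in HDM DEX parenchyma, 1 in HDM airways, 8 passing over the DEX contrasts (14 in the fit reported), 2 called with HDM at 3 weeks (5 reported) and 3 further AhR targets called in HDM airways (5 reported). In HDM DEX parenchyma 1 gene was called by edgeR and 1 with quality weights. Quality weights left 1 further target called in PBS airways, and leaving out single libraries gave 1 to 2 there (1 without X153 or X193) and 3 to 5 in HDM airways (3 without X109). Spearman's rho kept 3 of the 5 genes for Ahrr, 2 for Cyp1a1 and 2 for Cyp1b1, and TNGCGTG left 1 promoter with a match.

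Values near 0 changed sign. For Ahr with CS in PBS airways (0.01) edgeR gave -0.03, DESeq2 -0.03, quality weights -0.06 and single libraries left out -0.04 to 0.07. Quality weights gave 0.03 for Ahr with CS in PBS DEX airways and 0 for Arnt with CS in HDM DEX airways. Cyp1a1 with HDM in CS mice ranged from -0.05 to 0.38 in airways and from -0.14 to 0.34 in parenchyma without single libraries, and quality weights gave -0.17 in parenchyma. The cause was not tested. With the sets of 20 codes as a block 6 further values passed and 2 no longer passed. Ahrr and Cyp1a2 are limited by depth, and without X32, the shallowest library, 2 of the followed values no longer passed.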
